A study of Mus musculus with 6 samples.

Results

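Glycolysis splits glucose into pyruvate, and 34 genes of this route and of the handling of its product were followed here in cells sorted from adult mouse muscle. They were taken by symbol: glucose transporters, the enzymes of each glycolytic step, the bifunctional enzymes that set the level of fructose-2,6-bisphosphate, lactate dehydrogenases, pyruvate dehydrogenase kinases, a subunit of pyruvate dehydrogenase and lactate carriers. All 34 are among the 24062 genes of the table of normalised counts, and 16 are among the 4939 genes of the table of CPM, read counts scaled to a common library size.

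The study sequenced total RNA of cells freshly sorted from digested hind limb muscle of C57BL/6 mice. Tw2pos (n = 2) and Tw2neg (n = 2) are the tdTomato-positive and tdTomato-negative cells of Tw2-CreERT2/+;R26-tdTO+ mice, in which a tamoxifen-dependent Cre at the Twist2 gene switches on the red label. Pax7pos (n = 1) and Pax7neg (n = 1) are the positive and negative cells of Pax7-CreERT2/+;R26-tdTO+ mice, where the Cre is that of the satellite cell gene Pax7. Mice of both lines received tamoxifen in 3 treatments, 10 days before harvest. The label therefore marks cells with a history of Cre activity and their descendants, and the negative cells are whatever else the digest released. The labels do not say whether the Twist2 libraries came from separate mice, so p-values measure the spread between libraries, which may be technical.

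Most steps of glycolysis can be run by more than 1 gene. The paralogues differ in regulation and in the cells that use them, so that the choice of paralogue is a known mark of cell type. Hexokinase and phosphofructokinase commit glucose to the route. Pyruvate dehydrogenase consumes pyruvate inside the mitochondrion, its kinases switch it off, and monocarboxylate carriers move lactate across the cell membrane. In muscle, fibres rich in glycolysis release lactate, and other cells take it up.

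The Tw2pos libraries held 10902318 and 12425426 reads in genes, against 13205751 and 13005707 in Tw2neg. The CPM table accounts for 6016469 reads of Pax7pos, against 7565797 of Pax7neg. Twist2 itself had 99.4 and 222 normalised counts in Tw2pos, against 21.96 and 23.2 in Tw2neg, and was called higher (log2 2.67, SE 0.45, limma, adjusted p = 0.00706). Pax7 had 302.8 CPM in Pax7pos, against 0.402 CPM in Pax7neg. Summed markers of interstitial fibroblasts (9 genes, 6 called higher in Tw2pos and 3 not called) ranged from 1214800 to 1313369 normalised counts in Tw2pos, against 159878 to 302832 in Tw2neg. Summed neutrophil markers (11 genes, all 11 lower in Tw2pos) were 466 to 710 in Tw2pos, against 75062 to 83165 in Tw2neg. Summed macrophage and monocyte markers (13 genes, all 13 lower) were 2677 to 3617 in Tw2pos, against 35108 to 37581 in Tw2neg. No marker of either list was at 0 in both Tw2pos libraries. Summed myofibre markers (20 genes) were 1068 to 1673 in Tw2pos, against 555 to 873 in Tw2neg. Of the 16 of these tested, 7 were called higher in Tw2pos, 1 lower and 8 not called. In bulk samples, fewer cells of a type and less RNA per cell cannot be told apart.

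The promoters of 4 members whose levels differed between the groups are shown, because a pair of lactate carriers and a pair of hexokinases each went opposite ways in the Twist2 line. Each sequence is the 250 bases before the RefSeq transcription start on build GRCm38.p6, written 5′ to 3′ on the strand of the gene. The windows are chr3:104638414-104638663 (plus strand) for Slc16a1, chr11:120948817-120949066 (plus strand) for Slc16a3, chr6:82774455-82774704 (minus strand) for Hk2 and chr13:55021386-55021635 (minus strand) for Hk3. The Slc16a3 window lies within the GENCODE span of the gene, past its first annotated start. Capitals mark ACGTG and GCGTG, the core letters of the hypoxia response element, on either strand, including where ACGTG sits inside the palindrome CACGTG.
Slc16a1: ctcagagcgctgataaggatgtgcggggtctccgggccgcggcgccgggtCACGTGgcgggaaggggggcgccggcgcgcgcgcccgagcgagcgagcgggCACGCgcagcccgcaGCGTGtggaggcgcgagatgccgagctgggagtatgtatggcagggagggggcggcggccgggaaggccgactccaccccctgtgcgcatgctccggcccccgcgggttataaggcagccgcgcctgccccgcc
Slc16a3: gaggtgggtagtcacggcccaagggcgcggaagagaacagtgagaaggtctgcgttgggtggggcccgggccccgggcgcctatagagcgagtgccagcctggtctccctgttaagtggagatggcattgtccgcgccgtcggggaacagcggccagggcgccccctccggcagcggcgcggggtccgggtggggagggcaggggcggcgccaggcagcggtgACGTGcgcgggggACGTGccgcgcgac
Hk2: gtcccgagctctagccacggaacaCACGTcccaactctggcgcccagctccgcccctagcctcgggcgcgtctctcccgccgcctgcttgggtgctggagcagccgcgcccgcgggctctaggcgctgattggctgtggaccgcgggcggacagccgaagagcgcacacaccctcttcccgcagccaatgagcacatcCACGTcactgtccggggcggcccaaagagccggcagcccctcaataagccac
Hk3: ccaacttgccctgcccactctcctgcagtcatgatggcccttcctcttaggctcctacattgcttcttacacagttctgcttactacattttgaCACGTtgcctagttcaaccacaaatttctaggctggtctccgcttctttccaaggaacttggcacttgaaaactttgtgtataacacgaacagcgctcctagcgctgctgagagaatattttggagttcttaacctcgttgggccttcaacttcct
Across the members, 32 of 34 matched a RefSeq window, with 51 windows among them. ACGTG was present on either strand in 1 or more windows of 15 of the 32 members (46.9%), against 18.5% of 27025 genes with windows of the same length. GCGTG was present in 21 members (65.6%), against 30.9% of genes, and CACGTG, the E-box that contains ACGTG, in 6 members (18.8%), against 6.86%. The members had more windows per gene (51 for 32 genes) than all genes (32851 for 27025), so they had more chances of a match. Each motif contains CG, and all genes were not matched to the members for base composition. The part of base composition in these shares was not tested. A match is a description of letters, not a site. Windows of members that were higher in Tw2pos (Slc16a1, Hk2) and of members that were lower (Slc16a3, Hk3) both held ACGTG.

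At several steps of the route, paralogues of the same enzyme or carrier went opposite ways between Tw2pos and Tw2neg. In Tw2pos, 6 of the 32 members tested were higher and 11 were lower than in Tw2neg, and 15 did not pass (limma on log2 of normalised count plus 1, genes with a mean of at least 10, adjusted p under 0.05). The share of all 14155 genes tested that was called was 38.6%, with 18.7% higher and 20.0% lower. The 6 higher members were Hk2, Pfkm, Eno2, Pdk2, Slc16a1 and Pdha1. The 11 lower members were Slc2a3, Hk3, Gpi1, Pfkl, Pfkp, Aldoc, Gapdh, Pfkfb3, Pfkfb4, Pdk1 and Slc16a3. The median log2 difference was -0.36 over the members tested, against -0.04 over all genes tested. The libraries of the groups did not overlap for 26 of the 32 members, against 76.3% of all genes tested. With library totals as the scaling, the median over all genes was -0.49 and the members split into 4 higher and 17 lower, so the size of each difference depends on the scaling. Slc2a3, Hk3, Pfkl, Slc16a1 and Slc16a3 kept their calls under every alternative tried.

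**Figure D1:**
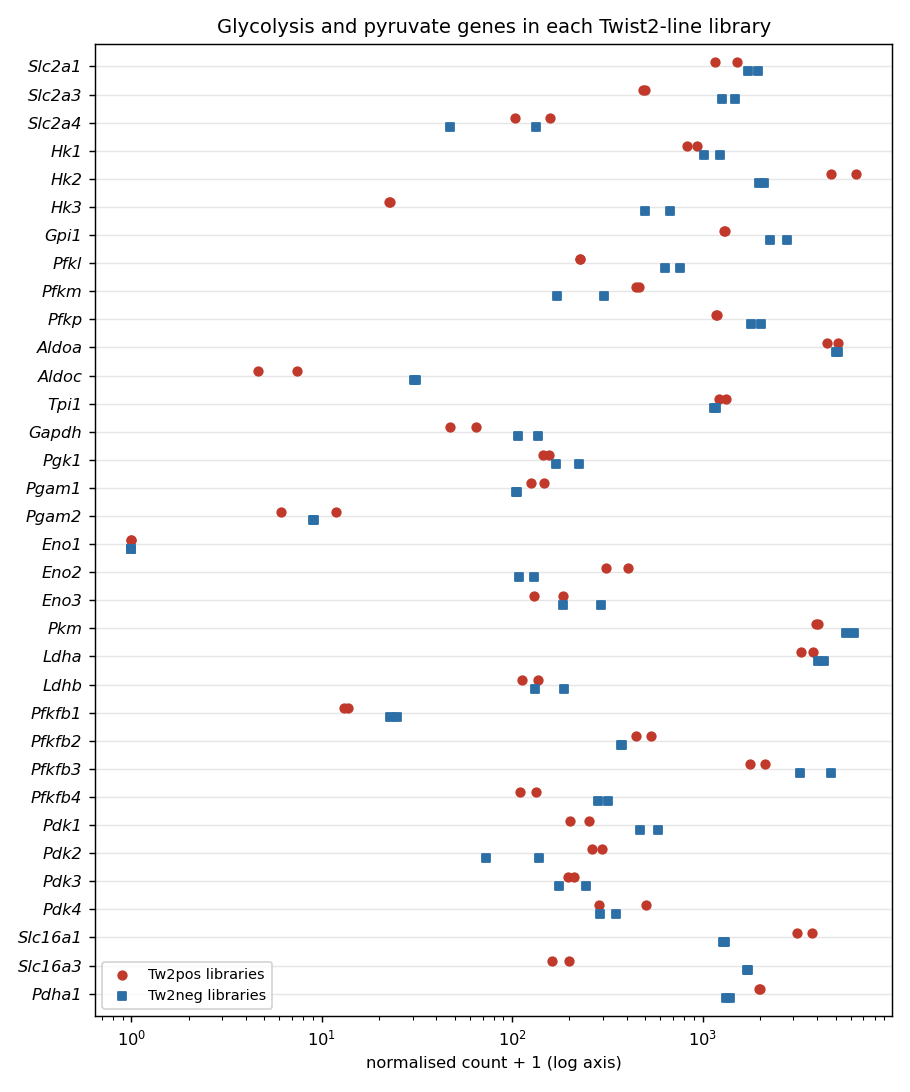
Normalised count plus 1 (log axis) of each of the 34 members in the 4 Twist2 libraries, with 1 point per library, Tw2pos in red circles and Tw2neg in blue squares. Hk3 lies at 21.7 in both Tw2pos libraries and at 501 or more in Tw2neg, while Slc16a1 lies at 3135 or more in Tw2pos and at 1314 or less in Tw2neg.

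**Figure D2:**
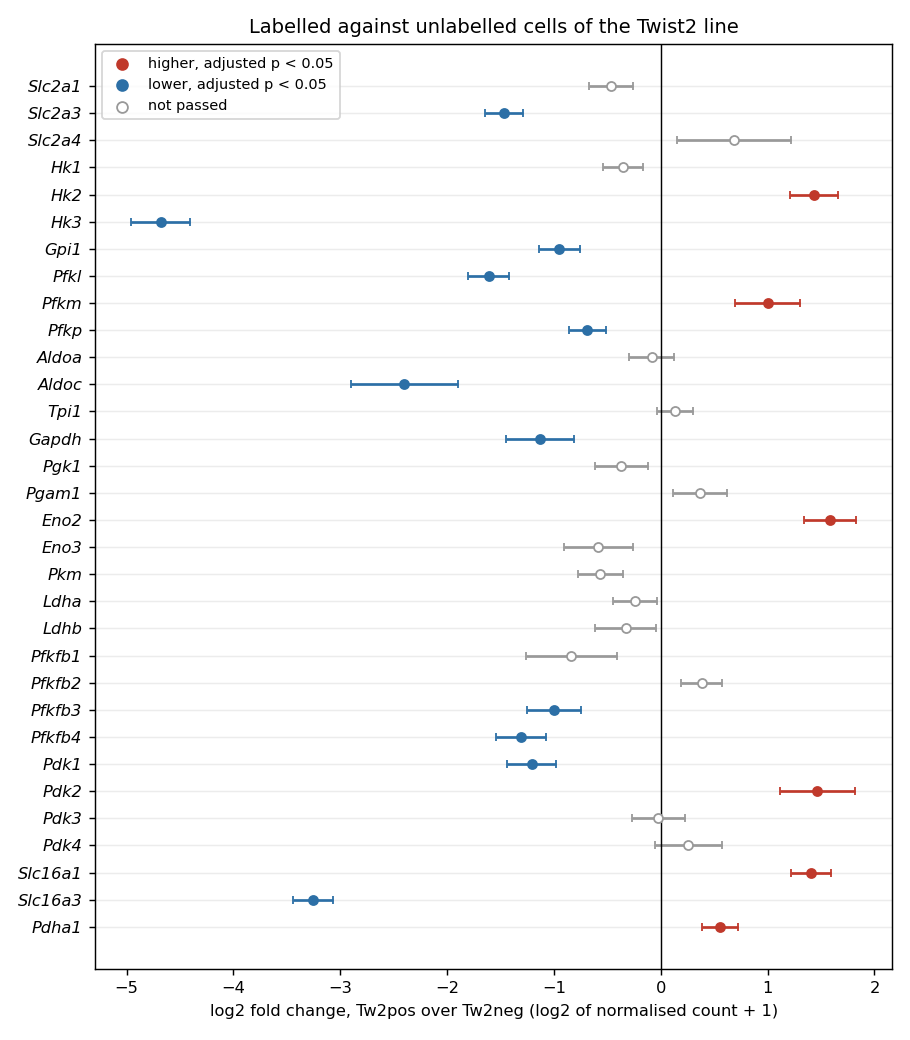
Log2 fold change of Tw2pos over Tw2neg for the 32 members tested, with bars of 1 standard error from the limma fit (n = 2 each). Filled points passed an adjusted p of 0.05, in red where higher and blue where lower in Tw2pos. The lowest points are Hk3 at -4.68 and Slc16a3 at -3.25.

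Among the glucose transporters, Slc2a3, a transporter of high affinity known from neurons and leukocytes, fell in Tw2pos. It had 486 and 501 normalised counts in Tw2pos, against 1256 and 1476 in Tw2neg. Both Tw2pos libraries lay below both Tw2neg libraries, with a log2 difference of -1.46 (SE 0.18, limma, adjusted p = 0.00279). Slc2a1, the transporter that most cells use, had 1168 and 1517 normalised counts in Tw2pos, against 1730 and 1949 in Tw2neg, and did not pass (log2 -0.46, SE 0.21, limma, adjusted p = 0.122). It passed under scaling by library totals (log2 -0.91, adjusted p = 0.00989, within 0.00989 to 0.646 over the alternatives). Slc2a4, the insulin-responsive transporter of muscle fibres and fat cells, had 157 and 103 normalised counts in Tw2pos, against 133 and 46.4 in Tw2neg, with overlap between the groups (log2 0.68, SE 0.53, limma, adjusted p = 0.344). Without Tw2neg 1 it passed (log2 1.43, adjusted p = 0.0338), and without Tw2neg 2 its sign turned (log2 -0.06, adjusted p = 0.899), within 0.0338 to 0.899 over the alternatives. Slc2a1 made up 78.1% ± 4.7 of the reads per kb of the 3 transporters in Tw2pos and 71.0% ± 1.4 in Tw2neg (SD, n = 2 each). The share of Slc2a3 was 14.0% ± 1.5 in Tw2pos and 25.5% ± 1.2 in Tw2neg.

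The hexokinases, which trap glucose by phosphorylating it, included paralogues that went opposite ways. Hk2 (chr6:82725025-82774454), the insulin-responsive hexokinase of muscle, had 4713 and 6408 normalised counts in Tw2pos, against 2092 and 1973 in Tw2neg. Its Tw2pos libraries both lay above Tw2neg, with a log2 difference of 1.44 (SE 0.23, limma, adjusted p = 0.00591). Without Tw2pos 2 the call was lost (log2 1.21, adjusted p = 0.0536, within 3.07e-06 to 0.0536 over the alternatives). Hk3 (chr13:55005985-55021385), a hexokinase expressed mainly in myeloid cells, had 21.7 and 21.7 normalised counts in Tw2pos, against 676 and 501 in Tw2neg. The difference of -4.68 on the log2 scale was the largest fall among the members (SE 0.27, limma, adjusted p = 0.000453). The neutrophil and macrophage marker sums given above were lower in the same group, and their part in the Hk3 result was not tested. Hk1, the hexokinase found in most tissues, had 932 and 831 normalised counts in Tw2pos, against 1237 and 1021 in Tw2neg, without overlap but without passing (log2 -0.35, SE 0.19, limma, adjusted p = 0.186). Scaling by library totals made it pass (log2 -0.80, adjusted p = 0.0166, within 0.0166 to 0.655).

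As shares of hexokinase reads per kb of exon, Hk2 made up 87.3% and 91.2% in Tw2pos, against 51.6% and 56.4% in Tw2neg. Hk1 made up 12.1% and 8.28% in Tw2pos, against 21.4% and 20.4% in Tw2neg. Hk3 made up 0.651% and 0.501% in Tw2pos, against 27.0% and 23.2% in Tw2neg. Hk2 was thus the leading hexokinase in all 4 libraries. Each of the 3 shares separated the groups without overlap, but an exact two-sided permutation test of 2 libraries against 2 cannot go below 0.333, which is the p of each. This holds for every share given here whose groups do not overlap, 22 of 27 genes in 10 families. In families of 2 genes the shares mirror each other, so both are counted. The normalised counts of 76.3% of all genes tested did not overlap either, so the count of 22 is a description only. With the unshared length of the principal transcript in place of the exon union, Hk2 averaged 80.7% in Tw2pos, against 43.8% in Tw2neg.

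**Figure D3:**
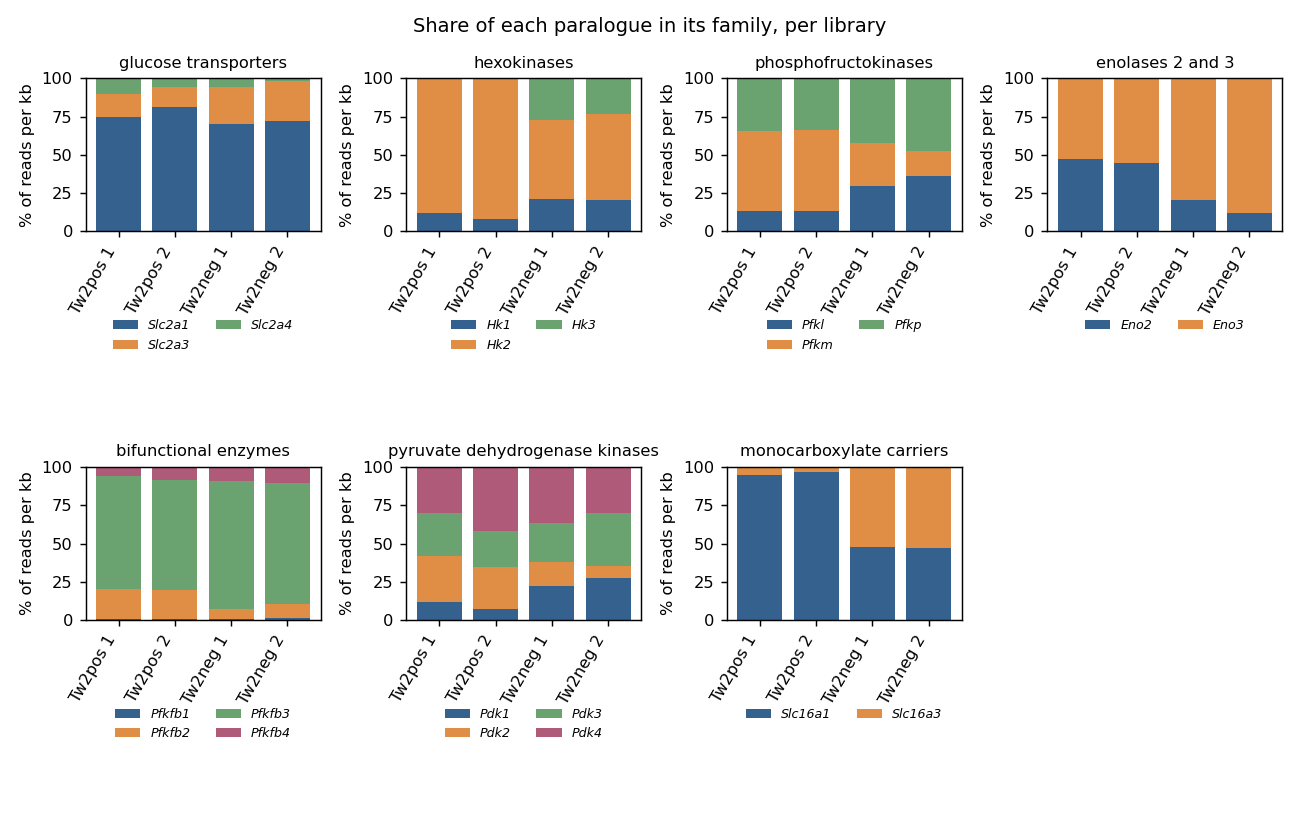
Share of each paralogue in the summed reads per kb of exon of its family (percent), with 1 stacked bar per library, Tw2pos left of Tw2neg. Aldolases, phosphoglycerate mutases and lactate dehydrogenases are left out, and Eno1 is left out of the enolases. Slc16a1 fills 94.98% and 96.5% of the bars of Tw2pos, against 48.1% and 47.0% of those of Tw2neg.

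After hexokinase, glucose-6-phosphate isomerase (Gpi1) turns glucose-6-phosphate into fructose-6-phosphate. Gpi1 had 1303 and 1303 normalised counts in Tw2pos, against 2270 and 2789 in Tw2neg, and fell by 0.95 on the log2 scale (SE 0.19, limma, adjusted p = 0.0125). The call was lost without Tw2pos 1 and without Tw2pos 2, although the log2 value stayed at -0.95 in both. The spread of those fits rests on the Tw2neg libraries alone. Gpi1 shares 19.6% of the 50-base stretches of its principal transcript with other genes, so its value is uncertain. Phosphofructokinase carries out the committed step, and its subunits moved apart. Pfkl (chr10:77986947-78010083), the liver-type subunit, had 226 and 227 normalised counts in Tw2pos, against 632 and 761 in Tw2neg. Both Tw2pos libraries lay below Tw2neg (log2 -1.61, SE 0.19, limma, adjusted p = 0.0027).

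Pfkp, the platelet-type subunit, had 1182 and 1183 normalised counts in Tw2pos, against 1800 and 2015 in Tw2neg, and fell by 0.69 on the log2 scale (SE 0.17, limma, adjusted p = 0.0255). Its call was lost without Tw2pos 1 and without Tw2pos 2, although the log2 value stayed at -0.69 in both. Pfkm (chr15:98092589-98132451), the muscle-type subunit, had 447 and 463 normalised counts in Tw2pos, against 303 and 170 in Tw2neg. It was higher by 1.001 on the log2 scale, near the threshold (SE 0.30, limma, adjusted p = 0.0442). Pfkm lost its call under 5 alternatives, among them edgeR (adjusted p = 0.0527), scaling by library totals (log2 0.55, adjusted p = 0.154) and leaving out Tw2pos 1 (adjusted p = 0.156) or Tw2pos 2 (adjusted p = 0.181), within 0.00273 to 0.181. Per kb of exon, Pfkm made up 52.3% and 53.1% of the phosphofructokinase reads in Tw2pos, against 28.3% and 16.2% in Tw2neg. Pfkl made up 13.2% and 13.0% in Tw2pos, against 29.6% and 36.2% in Tw2neg. Pfkp made up 34.5% and 33.8% in Tw2pos, against 42.0% and 47.7% in Tw2neg. Pfkm thus led in Tw2pos and Pfkp in Tw2neg, but the leader in Tw2pos depends on the length used. With the unshared length of the principal transcript, Pfkp averaged 56.6% in Tw2pos and 63.1% in Tw2neg, while Pfkm averaged 31.4% in Tw2pos and 11.4% in Tw2neg.

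The bifunctional enzymes make and break fructose-2,6-bisphosphate, the activator of phosphofructokinase. Pfkfb3 (chr2:11471433-11554077), the member with the strongest kinase activity, had 2138 and 1775 normalised counts in Tw2pos, against 4711 and 3229 in Tw2neg. It fell by 1.001 on the log2 scale (SE 0.25, limma, adjusted p = 0.0252), and lost the call without Tw2pos 1 (adjusted p = 0.0848) and without Tw2pos 2 (adjusted p = 0.189), within 0.00153 to 0.189. Pfkfb4, its relative known from testis and tumours, had 108 and 133 normalised counts in Tw2pos, against 319 and 280 in Tw2neg. It too was lower in both Tw2pos libraries (log2 -1.31, SE 0.23, limma, adjusted p = 0.00869), and lost the call without Tw2pos 1 (log2 -1.16, adjusted p = 0.0835, within 0.000488 to 0.0835). Pfkfb2, the heart-type enzyme, had 533 and 447 normalised counts in Tw2pos, against 370 and 378 in Tw2neg, and did not pass (log2 0.38, SE 0.19, limma, adjusted p = 0.159). Under scaling by library totals its sign turned (log2 -0.07). Pfkfb1, the liver-type enzyme, was low, at 12.7 and 12.1 normalised counts in Tw2pos, against 21.96 and 24.0 in Tw2neg (log2 -0.84, SE 0.42, limma, adjusted p = 0.166). Pfkfb3 led the family per kb in every library, with 74.1% and 71.9% in Tw2pos, against 83.6% and 78.7% in Tw2neg. Pfkfb2 held 19.2% and 18.9% in Tw2pos, against 6.85% and 9.61% in Tw2neg.

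The middle and lower steps are run by abundant genes, and most of these did not pass. Aldoa, the aldolase of muscle and most other tissues, had 4499 and 5121 normalised counts in Tw2pos, against 5017 and 5159 in Tw2neg, and the groups overlapped (log2 -0.08, SE 0.21, limma, adjusted p = 0.775). Per kb of exon, Aldoa had the highest level of any member in both groups, with a mean of 1652 normalised counts per kb in Tw2pos and 1748 in Tw2neg. This rank is uncertain, since members with much shared sequence, among them Gapdh, Eno1 and Pgk1, may be undercounted. Aldoa itself shares 13.9% of the 50-base stretches of its principal transcript. Tpi1, triose phosphate isomerase, had 1218 and 1332 normalised counts in Tw2pos, against 1152 and 1177 in Tw2neg (log2 0.13, SE 0.17, limma, adjusted p = 0.576). Pkm, the pyruvate kinase outside liver and red cells, had 4058 and 3951 in Tw2pos, against 5646 and 6218 in Tw2neg. Its groups did not overlap, but it did not pass (log2 -0.57, SE 0.21, limma, adjusted p = 0.0755). Pkm did pass without Tw2neg 1 (log2 -0.63, adjusted p = 0.0296) and under scaling by library totals (log2 -1.01, adjusted p = 0.00826), within 0.00826 to 0.434.

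Phosphoglycerate kinase (Pgk1) had 144 and 156 normalised counts in Tw2pos, against 169 and 222 in Tw2neg (log2 -0.37, SE 0.25, limma, adjusted p = 0.276). Phosphoglycerate mutase 1 (Pgam1) had 125 and 146 in Tw2pos, against 103 and 106 in Tw2neg (log2 0.37, SE 0.25, limma, adjusted p = 0.284). Neither passed, although Pgk1 did under scaling by library totals (log2 -0.82, adjusted p = 0.0418, within 0.0418 to 0.68), which turned the sign of Pgam1 (log2 -0.08). Pgam2, the muscle-type mutase, had 5.1 and 10.9 normalised counts in Tw2pos, against 8.13 and 7.996 in Tw2neg, and its mean lay under the minimum of 10 for the test. Aldoc, the brain-type aldolase, was low throughout, at 6.37 and 3.62 normalised counts in Tw2pos, against 30.1 and 29.6 in Tw2neg. Aldoc reached the minimum mean of 10 through Tw2neg alone, so its call is a description. It fell by 2.40 on the log2 scale (SE 0.50, limma, adjusted p = 0.0143), and missed the threshold without Tw2pos 2 (log2 -2.06, adjusted p = 0.0674, within 0.00103 to 0.0674). Its share of aldolase reads per kb was 0.126% and 0.063% in Tw2pos, against 0.532% and 0.509% in Tw2neg.

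Several genes in this stretch share their sequence with processed pseudogenes, so that reads of these genes may have been dropped or split. Of the 50-base stretches of the principal transcript, 82.5% recur in other annotated genes for Gapdh, 72.2% for Eno1, 68.0% for Pgk1, 41.5% for Pgam1, 30.5% for Pkm and 27.0% for Ldhb. In all, 9 of 34 members exceed 10%, and 24 lie below 2%. Gapdh, glyceraldehyde-3-phosphate dehydrogenase, had 45.9 and 63.9 normalised counts in Tw2pos, against 135 and 106 in Tw2neg, and shares stretches with 213 pseudogenes. Its fall of 1.13 on the log2 scale (SE 0.32, limma, adjusted p = 0.0353) is therefore uncertain. The Gapdh call was lost without any 1 of the 4 libraries (adjusted p = 0.264 without Tw2pos 1, 0.109 without Tw2pos 2, 0.0794 without Tw2neg 1 and 0.0504 without Tw2neg 2), within 0.00758 to 0.264. Eno1, the enolase of most tissues, is listed at 0 in all 4 libraries. Its near-identical copy Eno1b had 331 and 251 normalised counts in Tw2pos, against 589 and 620 in Tw2neg, so no value of Eno1 is interpreted here. Exons of 12 members also overlap an antisense gene (Slc2a1, Hk1, Hk3, Gpi1, Pfkm, Pfkp, Aldoa, Tpi1, Gapdh, Pfkfb1, Pfkfb2 and Pdha1), and no source used here gives the strand setting.

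**Figure D4:**
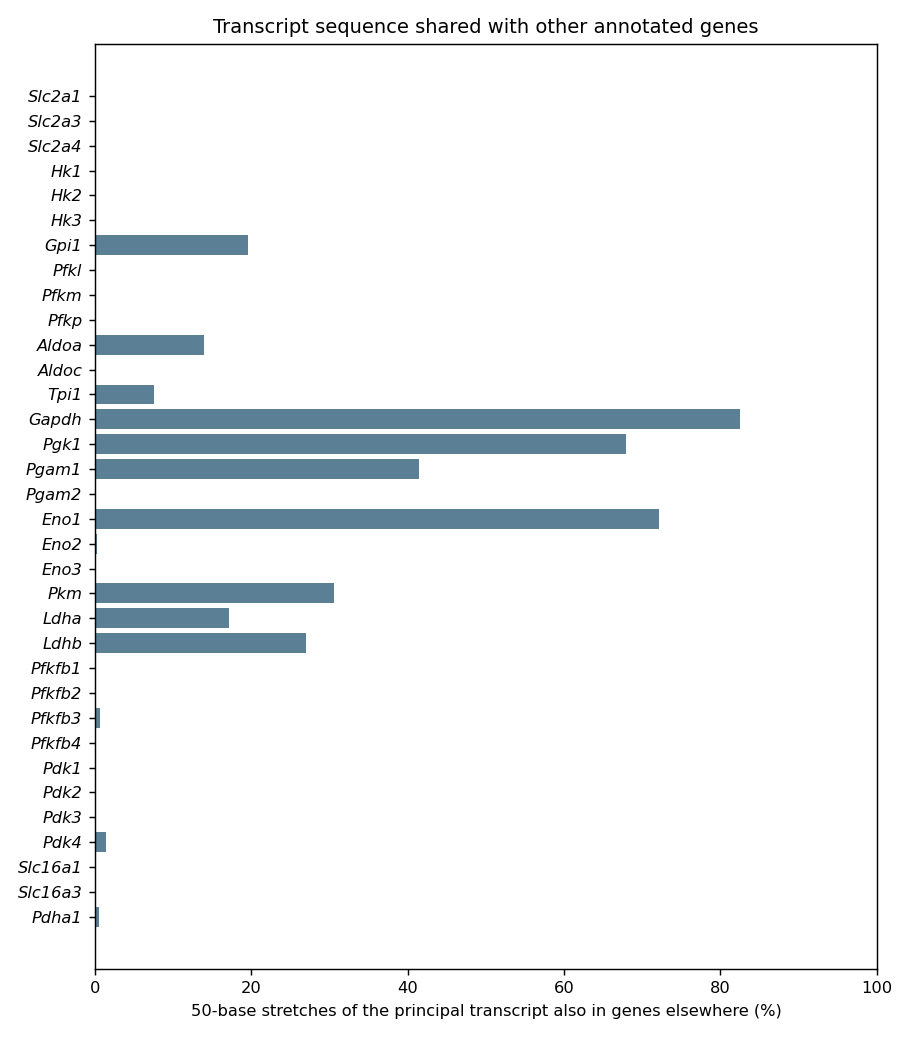
Percent of the 50-base stretches of the principal transcript of each member (horizontal bars) that also occur in annotated genes elsewhere, from GENCODE M21 transcripts. Gapdh (82.5%), Eno1 (72.2%) and Pgk1 (68.0%) stand above the rest, and the paralogues of the hexokinases and phosphofructokinases lie near 0.

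Of the other enolases, Eno2 (chr6:124760053-124769673), known as the neuronal form, was higher in Tw2pos. It had 311 and 405 normalised counts in Tw2pos, against 128 and 108 in Tw2neg. The libraries did not overlap (log2 1.58, SE 0.25, limma, adjusted p = 0.00552), although the call was lost without Tw2pos 2 (log2 1.39, adjusted p = 0.0649, within 3.64e-05 to 0.0649). Eno3, the enolase of muscle fibres, had 129 and 183.3 normalised counts in Tw2pos, against 183 and 291 in Tw2neg, with a marginal overlap (log2 -0.58, SE 0.32, limma, adjusted p = 0.196). Scaling by library totals made Eno3 pass (log2 -1.03, adjusted p = 0.0334, within 0.0334 to 0.673). Of the reads per kb of Eno2 and Eno3 together, Eno2 made up 47.2% and 44.97% in Tw2pos, against 20.6% and 12.1% in Tw2neg.

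Lactate dehydrogenase interconverts pyruvate and lactate, and neither of its genes passed. Ldha, the muscle-type subunit, had 3306 and 3780 normalised counts in Tw2pos, against 4014 and 4358 in Tw2neg (log2 -0.24, SE 0.20, limma, adjusted p = 0.378). Ldhb, the heart-type subunit, had 136 and 112 in Tw2pos, against 185 and 130 in Tw2neg (log2 -0.33, SE 0.28, limma, adjusted p = 0.397). The Ldhb groups overlapped and the Ldha groups did not. The share of Ldha per kb was 92.0% and 94.1% in Tw2pos, against 91.1% and 94.1% in Tw2neg, with overlap (exact permutation p = 0.667). Ldha passed under scaling by library totals (log2 -0.69, adjusted p = 0.0277, within 0.0277 to 0.842).

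The lactate carriers also went opposite ways. Slc16a1 (chr3:104638668-104658462), a carrier that takes up or releases lactate and pyruvate, had 3135 and 3753 normalised counts in Tw2pos, against 1314 and 1276 in Tw2neg. Both Tw2pos libraries lay well above Tw2neg, with a log2 difference of 1.40 (SE 0.19, limma, adjusted p = 0.00361). Slc16a3 (chr11:120948480-120960868), the exporter of strongly glycolytic cells, had 199 and 162 normalised counts in Tw2pos, against 1705 and 1732 in Tw2neg. Its difference of -3.25 on the log2 scale (SE 0.19, limma, adjusted p = 0.000453) was second only to that of Hk3 among the members tested. Of the carrier reads per kb, Slc16a1 made up 94.98% and 96.5% in Tw2pos, against 48.1% and 47.0% in Tw2neg. Slc16a3 therefore held 5.02% and 3.46% in Tw2pos, against 51.9% and 53.0% in Tw2neg. Leukocyte marker sums moved in the direction of Slc16a3, and their part in it was not tested.

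At the pyruvate dehydrogenase step, the kinases that switch the enzyme off moved in different directions. Pdk2 (chr11:95026258-95041354), the kinase found in most tissues, had 260 and 294 normalised counts in Tw2pos, against 137 and 72.0 in Tw2neg. It was higher without overlap (log2 1.47, SE 0.35, limma, adjusted p = 0.0216), and lost the call without Tw2pos 1 (adjusted p = 0.0705) and without Tw2pos 2 (adjusted p = 0.112), within 0.000361 to 0.112. Pdk1 (chr2:71873224-71903858), the kinase best known as a target of hypoxia, had 254 and 200.2 normalised counts in Tw2pos, against 468 and 584 in Tw2neg. Pdk1 was lower without overlap (log2 -1.21, SE 0.23, limma, adjusted p = 0.0103), and lost the call without Tw2pos 2 (log2 -1.04, adjusted p = 0.0922, within 0.000299 to 0.0922). Pdk3 had 195 and 210 normalised counts in Tw2pos, against 175 and 242 in Tw2neg (log2 -0.02, SE 0.25, limma, adjusted p = 0.945). Pdk4, the kinase induced by fasting in muscle, had 284 and 507 in Tw2pos, against 349 and 289 in Tw2neg (log2 0.26, SE 0.31, limma, adjusted p = 0.545). Both kinases overlapped between the groups. Per kb, Pdk2 made up 30.2% and 27.0% of the kinase reads in Tw2pos, against 16.0% and 8.29% in Tw2neg, and Pdk1 made up 12.0% and 7.46% in Tw2pos, against 22.2% and 27.3% in Tw2neg.

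Pdha1, the X-linked catalytic subunit that these kinases phosphorylate, had 2000.3 and 1979 normalised counts in Tw2pos, against 1388 and 1320 in Tw2neg. The libraries did not overlap, and the difference was small (log2 0.56, SE 0.17, limma, adjusted p = 0.0452). Pdha1 lost its call under 6 alternatives, with an adjusted p of 0.32 without Tw2pos 1, 0.311 without Tw2pos 2, 0.0562 in edgeR, 0.0888 in DESeq2 and 0.655 under scaling by library totals (log2 0.11), within 0.0208 to 0.655.

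The labelled cells of the lines were compared in the CPM table. Tw2pos had more Eno2, Pdk1 and Pdk3 and less Slc2a1, Slc2a3, Eno3, Pdk4 and Slc16a3 than Pax7pos. Its genes reach 10 CPM in 3 or more libraries and differ 2-fold or more from Tw2neg in the authors' deposited table, so its members were selected on values that enter the comparison, and their counts are a description. Of the members outside it, 11 reach 10 CPM in 3 Twist2 libraries (Hk1, Gpi1, Pfkm, Pfkp, Aldoa, Tpi1, Pgk1, Pkm, Ldha, Pfkfb2 and Pdha1), and the other 7 (Slc2a4, Aldoc, Gapdh, Pgam1, Pgam2, Eno1 and Pfkfb1) do not. Their Pax7 values were not analysed here. Of the 16 members in the table, 15 were tested, since Ldhb lay under a mean of 10 CPM, and 3 were higher and 5 lower in Tw2pos. The share of all 4790 genes tested that was called was 59.6%, with 33.9% higher and 25.7% lower, and the median log2 difference was -0.20 over these members, against 0.41 over all genes. With 1 library each, the Pax7 groups borrow their spread from the Twist2 groups. With TMM factors the median of all genes moved to 0.12 and the calls over all genes to 1388 higher and 1524 lower, against 1624 higher and 1229 lower as first scaled.

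Pdk4 (chr6:5483351-5496309) differed most. It had 23.0 and 40.9 CPM in Tw2pos, against 348 CPM in Pax7pos, a log2 difference of -3.46 (SE 0.41, limma, adjusted p = 0.000431). Eno2 had 25.1 and 32.7 CPM in Tw2pos, against 4.91 CPM in Pax7pos, and Eno3 had 10.4 and 14.8 CPM in Tw2pos, against 49.1 CPM in Pax7pos. The enolases thus differed in opposite directions (log2 2.33, SE 0.40, limma, adjusted p = 0.00217 for Eno2 and log2 -1.90, SE 0.42, adjusted p = 0.00653 for Eno3). Eno3 lost its call without Tw2pos 1 (adjusted p = 0.0695, within 0.000356 to 0.0695). Of the reads per kb of both enolases, Eno2 held 47.2% and 44.97% in Tw2pos, against 3.56% in Pax7pos.

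Of the glucose transporters, Slc2a1 (chr4:119108711-119137983) had 94.3 and 123 CPM in Tw2pos, against 331 CPM in Pax7pos (log2 -1.61, SE 0.33, limma, adjusted p = 0.00463). Slc2a3 had 39.2 and 40.4 CPM in Tw2pos, against 73.9 CPM in Pax7pos (log2 -0.87, SE 0.31, limma, adjusted p = 0.0391), and lost its call without Tw2pos 1 (adjusted p = 0.272) or Tw2pos 2 (adjusted p = 0.243), within 0.00297 to 0.272. Both transporters were lower in each Tw2pos library than in Pax7pos. Of the carriers, Slc16a3 had 16.1 and 13.1 CPM in Tw2pos, against 41.6 CPM in Pax7pos (log2 -1.46, SE 0.31, limma, adjusted p = 0.00591), and lost the call without Tw2pos 2 (adjusted p = 0.081, within 0.00043 to 0.081). Slc16a1 had 253 and 303 CPM in Tw2pos, against 187 CPM in Pax7pos, and did not pass (log2 0.56, SE 0.32, limma, adjusted p = 0.155). It did pass without Tw2neg 1 or Tw2neg 2, but log2 stayed at 0.56, as Tw2neg enters this comparison only through the shared spread.

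Among the kinases, Pdk1 had 20.5 and 16.2 CPM in Tw2pos, against 7.31 CPM in Pax7pos (log2 1.21, SE 0.36, limma, adjusted p = 0.0204). Pdk3 had 15.8 and 17.0 CPM in Tw2pos, against 7.31 CPM in Pax7pos (log2 1.06, SE 0.39, limma, adjusted p = 0.0467). Both calls were lost with TMM factors (adjusted p = 0.0664 for Pdk1 and 0.146 for Pdk3), without Tw2pos 1 (0.256 and 0.282) and without Tw2pos 2 (0.12 and 0.327). The adjusted p over the alternatives was within 0.00177 to 0.256 for Pdk1 and within 0.0033 to 0.327 for Pdk3. Pdk2 had 21.0 and 23.8 CPM in Tw2pos, against 9.40 CPM in Pax7pos, short of the threshold (log2 1.17, SE 0.47, limma, adjusted p = 0.0633). It passed without Tw2neg 1 or Tw2neg 2, with log2 still at 1.17. Tw2neg enters this comparison only through the shared spread, so the size of the difference did not change. Of the kinase reads per kb, Pdk4 made up 29.8% and 41.8% in Tw2pos, against 93.6% in Pax7pos, where Pdk4 was the leading kinase. Summed myofibre markers (3 genes of the table) were 52.1 and 69.9 CPM in Tw2pos, against 715 CPM in Pax7pos, and summed satellite cell markers (9 genes) were 1207 and 1332 CPM in Tw2pos, against 7567 CPM in Pax7pos. Their part in these values was not tested.

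The remaining members of the table did not pass between Tw2pos and Pax7pos. Hk2 had 381 and 518 CPM in Tw2pos, against 553 CPM in Pax7pos (log2 -0.32, SE 0.35), and Hk3 had 1.75 and 1.75 CPM in Tw2pos, against 0.836 CPM in Pax7pos (log2 0.58, SE 0.44). High Hk2 with little Hk3 was thus measured in the labelled cells of both lines. Hk2 was also high in Pax7neg, at 393 CPM, against 168 and 158 CPM in Tw2neg. Hk3 reached the minimum mean of 10 CPM through the unlabelled cells alone, so its values here are a description. Pfkl had 18.2 and 18.3 CPM in Tw2pos, against 21.2 CPM in Pax7pos (log2 -0.20, SE 0.32). Pfkfb3 had 173 and 143 CPM in Tw2pos, against 139 CPM in Pax7pos (log2 0.18, SE 0.36), with its sign turned under TMM factors (log2 -0.16). Pfkfb4 had 8.75 and 10.7 CPM in Tw2pos, against 16.3 CPM in Pax7pos (log2 -0.69, SE 0.37, limma, adjusted p = 0.137). It passed with TMM factors (log2 -1.01, limma, adjusted p = 0.0455). It also passed without Tw2neg 1 or Tw2neg 2, where log2 stayed at -0.69 and only the shared spread changed. Ldhb had 11.02 and 9.06 CPM in Tw2pos, against 5.75 CPM in Pax7pos, and was not tested.

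**Figure D5:**
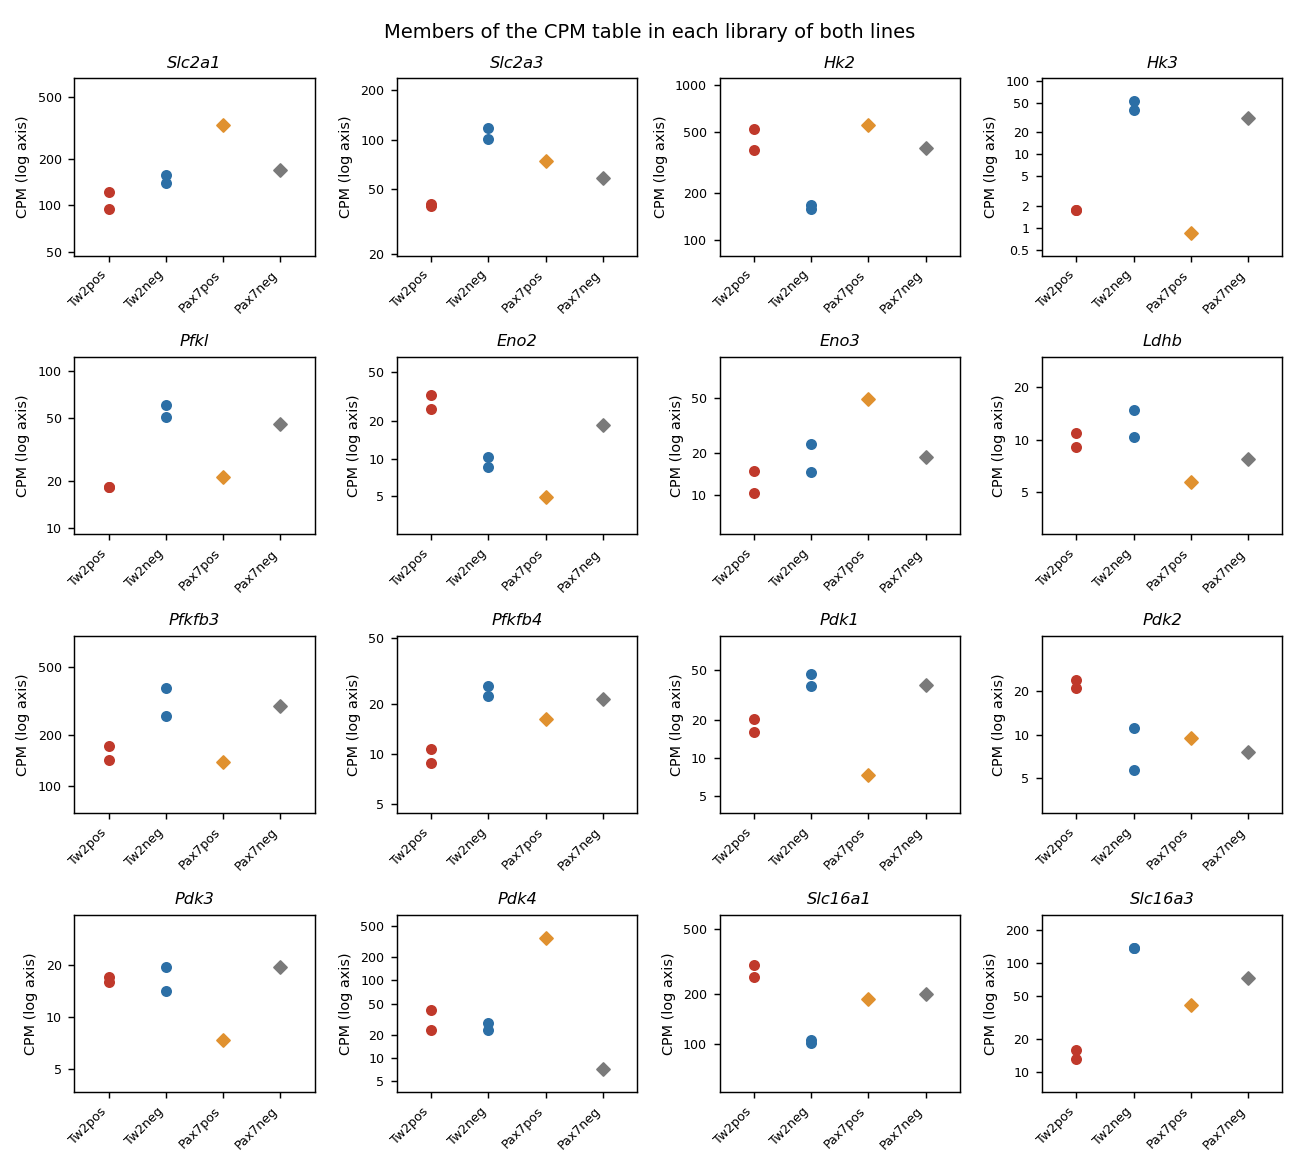
CPM (log axis) of the 16 members of the CPM table in each library, with circles for the Twist2 line (Tw2pos left of Tw2neg) and diamonds for the single libraries of the Pax7 line (Pax7pos left of Pax7neg). Pdk4 stands at 348 CPM in Pax7pos and at or below 40.9 CPM in the other 5 libraries, and Hk3 stands at or below 1.75 CPM in the labelled cells and at or above 31.0 CPM in the unlabelled cells.

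Within the Pax7 line, with 1 library a group and no test, 5 of 16 members differed by at least 2-fold between Pax7pos and Pax7neg (log2 ratio of CPM plus 10). Of these, 2 were higher and 3 lower in Pax7pos, against 51.3% past that fold, 18.3% higher and 33.0% lower over all 4939 genes of the table. Pdk4 had 348 CPM in Pax7pos (95% exact Poisson interval 337 to 360.4) and 7.23 CPM in Pax7neg (5.81 to 8.89), a log2 ratio of 4.38. Eno3 had 49.1 CPM in Pax7pos (44.8 to 53.7) and 18.8 CPM in Pax7neg (16.5 to 21.4), a log2 ratio of 1.04. These intervals cover counting error only. Those of Pax7neg, like its read total, take the common step of its CPM values as 1 read, which could not be settled for that library. Hk3 had 0.836 CPM in Pax7pos, from 8 reads (0.361 to 1.65), and 31.0 CPM in Pax7neg (28.0 to 34.3), a log2 ratio of -1.92. Hk3 reached 10 CPM in the unlabelled libraries alone, so its place among the members past 2-fold is a description. Pdk1 had 7.31 CPM in Pax7pos (5.70 to 9.24) and 38.3 CPM in Pax7neg (35.0 to 41.9), with a log2 ratio of -1.48. Pfkfb3 had 139 CPM in Pax7pos (132 to 147) and 296 CPM in Pax7neg (286 to 305), with a log2 ratio of -1.04. Summed neutrophil markers (10 genes) were 23.7 CPM in Pax7pos and 2781 CPM in Pax7neg, and the part of these cells in the Hk3 value was not tested. The other 11 members of the table had log2 ratios between -0.95 (Eno2) and 0.92 (Slc2a1). A pseudocount of 10 damps the ratios of low genes. With a pseudocount of 1, as in the fits, the log2 ratio was -4.12 for Hk3, -2.24 for Pdk1, 5.41 for Pdk4 and 1.34 for Eno3, and 8 members passed 2-fold, adding Eno2 (-1.74), Pfkl (-1.07) and Pdk3 (-1.29). Slc16a1 had 187 CPM in Pax7pos and 202 CPM in Pax7neg, and Slc16a3 had 41.6 CPM in Pax7pos and 72.8 CPM in Pax7neg. Slc16a1 thus held 84.4% of the carrier reads per kb in Pax7pos and 76.9% in Pax7neg, against 94.98% and 96.5% in Tw2pos and 48.1% and 47.0% in Tw2neg.

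Between the unlabelled cells, Tw2neg against Pax7neg, 0 of the 15 members tested passed (limma), against 0.23% of all genes called, 0.146% higher and 0.0835% lower. At an unadjusted p under 0.05, 6 members differed, against 749 of 4790 genes. The members were Slc2a3, Hk2, Eno2, Pdk4, Slc16a1 and Slc16a3. Hk2 had 168 and 158 CPM in Tw2neg, against 393 CPM in Pax7neg (log2 -1.27, SE 0.35, limma, adjusted p = 0.161), and Slc16a1 had 106 and 102 CPM in Tw2neg, against 202 CPM in Pax7neg (log2 -0.95, SE 0.32, limma, adjusted p = 0.212). Slc16a3 had 137 and 138 CPM in Tw2neg, against 72.8 CPM in Pax7neg (log2 0.91, SE 0.31, limma, adjusted p = 0.223). Summed fibroblast markers were 24319 and 12782 CPM in Tw2neg, against 49575 CPM in Pax7neg, and 0 of the 9 were called between these groups. Of the 9 satellite cell markers tested, 2 were called higher in Tw2neg and 7 were not called. The part of cell mixture in these values was not tested. Without Tw2neg 1 the counts were 3 members higher and 3 lower, and without Tw2neg 2 they were 3 higher and 2 lower.

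The difference of labelled minus unlabelled cells was then compared between the lines, as Twist2 line minus Pax7 line. It passed for 7 of the 15 members, 2 of them positive (Eno2 and Slc16a1) and 5 negative (Slc2a1, Slc2a3, Eno3, Pdk4 and Slc16a3), against 36.2% called, 23.4% positive and 12.8% negative over all 4790 genes. The contrast uses the same libraries as the comparisons above, so it does not stand apart from them. Its genes were selected on differences from Tw2neg, which enters it, so these counts are a description. Pdk4 had the largest value among the members, at -5.15 on the log2 scale (SE 0.58, limma, adjusted p = 0.000576), as Tw2pos and Tw2neg overlapped while Pax7pos lay far above Pax7neg. Eno2 followed at 3.25 (SE 0.56, limma, adjusted p = 0.00402), with Tw2pos above Tw2neg and Pax7pos below Pax7neg. Slc16a3 stood at -2.37 (SE 0.45, limma, adjusted p = 0.00587). Pdk4 and Slc16a3 kept their calls under every alternative tried, and Eno2 under those in which it was tested, which leaves out the filter at a mean of 50 CPM. The value was -1.76 for Slc2a3 (SE 0.43, limma, adjusted p = 0.0174), 1.51 for Slc16a1 (SE 0.45, adjusted p = 0.0321), -1.88 for Eno3 (SE 0.60, adjusted p = 0.0412) and -1.41 for Slc2a1 (SE 0.46, adjusted p = 0.0469). These 4 lost their calls without Tw2pos 1 (adjusted p = 0.122 for Slc2a3, 0.13 for Slc16a1, 0.253 for Eno3 and 0.284 for Slc2a1) and without Tw2pos 2 (adjusted p = 0.109 for Slc2a3, 0.212 for Slc16a1, 0.124 for Eno3 and 0.142 for Slc2a1). The adjusted p over the alternatives ran within 0.000932 to 0.122 for Slc2a3, 0.00484 to 0.212 for Slc16a1, 0.00214 to 0.253 for Eno3 and 0.0073 to 0.284 for Slc2a1. With TMM factors the calls over all genes were 959 positive and 1104 negative, against 1121 positive and 615 negative, and the median of all genes was -0.03, against 0.37. Hk3 did not pass (log2 0.01, SE 0.63, limma, adjusted p = 0.99), and its sign turned under 3 alternatives.

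Routes next to glycolysis were read in the Twist2 line from companion lists. Their counts stand beside 18.7% higher and 20.0% lower over all 14155 genes tested. Of 12 tested genes among other glycolytic enzymes and transporters, 2 were higher and 5 lower in Tw2pos, with a median log2 of -0.30. Adpgk, an ADP-dependent glucokinase, had 430 and 531 normalised counts in Tw2pos, against 1714 and 1590 in Tw2neg (log2 -1.79, SE 0.19, limma, adjusted p = 0.00189). Slc2a10, a transporter whose loss causes arterial tortuosity in humans, had 682 and 587 in Tw2pos, against 280 and 111 in Tw2neg (log2 1.84, SE 0.43, limma, adjusted p = 0.0203), and missed the threshold without Tw2pos 1 (adjusted p = 0.055, within 2.77e-06 to 0.055). Ldhc, the testis-type lactate dehydrogenase, had 0 reads in each Tw2pos library, against 24 and 34 reads in Tw2neg. The Tw2neg mean lay 6.27-fold above a floor of 3 reads per Tw2pos library, and 5.24-fold without Tw2neg 2. Ldhc reached the minimum mean of 10 through Tw2neg alone, so its lower call is a description.

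Of 17 tested genes of pyruvate entry and lactate transport, 5 were higher and 2 lower in Tw2pos (median log2 0.10). The shares over all genes tested were 18.7% higher and 20.0% lower. Bsg, the chaperone that carries the lactate carriers to the membrane, had 4124 and 4682 normalised counts in Tw2pos, against 2867 and 1973 in Tw2neg. It passed near the threshold (log2 0.89, SE 0.25, limma, adjusted p = 0.0348). The call was lost in limma with no filter on level (adjusted p = 0.0577) and under scaling by library totals (log2 0.44, adjusted p = 0.157). It was also lost without Tw2pos 1 (log2 0.98), Tw2pos 2 (log2 0.79) or Tw2neg 2 (log2 0.62). Gpt2, which turns pyruvate into alanine, had 519 and 466 in Tw2pos, against 161 and 80.0 in Tw2neg (log2 2.10, SE 0.35, limma, adjusted p = 0.00721). Me2, a malic enzyme that makes pyruvate in the mitochondrion, had 167 and 163 in Tw2pos, against 420 and 541 in Tw2neg (log2 -1.52, SE 0.22, limma, adjusted p = 0.0044).

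The pentose phosphate pathway, which branches off at glucose-6-phosphate, had 1 of 12 genes higher and 5 lower in Tw2pos (median log2 -0.66). Against these counts, 18.7% of all genes tested were higher and 20.0% lower. Tkt, transketolase, had 1405 and 1434 normalised counts in Tw2pos, against 3031 and 3192 in Tw2neg (log2 -1.13, SE 0.17, limma, adjusted p = 0.00539). Without Tw2pos 1 its adjusted p was 0.0623 and without Tw2pos 2 it was 0.061, within 0.000122 to 0.0623. Taldo1, transaldolase, had 537 and 533 in Tw2pos, against 1265 and 1415 in Tw2neg (log2 -1.32, SE 0.17, limma, adjusted p = 0.00326). The gene that went the other way was H6pd, the glucose-6-phosphate dehydrogenase of the endoplasmic reticulum, with 1281 and 1218 in Tw2pos, against 840 and 595 in Tw2neg (log2 0.82, SE 0.22, limma, adjusted p = 0.0303). Its call was lost without Tw2pos 1 (adjusted p = 0.179), without Tw2pos 2 (0.149) and under scaling by library totals (log2 0.37, adjusted p = 0.199), within 0.00377 to 0.199. In the tricarboxylic acid cycle 0 of 18 genes were higher and 1 was lower (median log2 -0.05). That gene was Dlst, a subunit of the oxoglutarate dehydrogenase complex, with 1119 and 1163 in Tw2pos, against 1592 and 1943 in Tw2neg (log2 -0.62, SE 0.19, limma, adjusted p = 0.0424). Dlst lost the call in DESeq2 (adjusted p = 0.0608) and in limma with no filter on level (adjusted p = 0.0576). Its call was also lost without Tw2pos 1 (log2 -0.60) and without Tw2pos 2 (log2 -0.65). Its partner Ogdh, the most abundant of the list, had 2058 and 2251 in Tw2pos, against 2305 and 2172 in Tw2neg (log2 -0.06, SE 0.18, limma, adjusted p = 0.823).

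Of 20 genes of glycogen metabolism, 4 were higher and 4 lower in Tw2pos (median log2 0.41), near the 18.7% higher and 20.0% lower over all genes tested. Gaa, the lysosomal glucosidase that breaks glycogen down, had 3598 and 3956 normalised counts in Tw2pos, against 1326 and 984 in Tw2neg (log2 1.72, SE 0.22, limma, adjusted p = 0.00301). Of the subunits that bring protein phosphatase to glycogen, Ppp1r3c had 98.2 and 100.1 in Tw2pos, against 23.6 and 13.6 in Tw2neg (log2 2.40, SE 0.39, limma, adjusted p = 0.00649). Ppp1r3b had 16.6 and 15.7 in Tw2pos, against 322 and 324 in Tw2neg (log2 -4.24, SE 0.28, limma, adjusted p = 0.000504). These glycogen-targeting paralogues thus separated the groups in opposite directions. Of 24 tested genes of the hypoxia response, 6 were higher and 4 lower (median log2 0.19), also near those shares. Ak4, a mitochondrial adenylate kinase induced by hypoxia, had 224 and 291 in Tw2pos, against 100.02 and 59.2 in Tw2neg (log2 1.72, SE 0.33, limma, adjusted p = 0.0113). Ankrd37, another hypoxia-induced gene, had 15.3 and 12.1 in Tw2pos, against 39.0 and 47.2 in Tw2neg (log2 -1.59, SE 0.40, limma, adjusted p = 0.0254). Ak4 lost its call without Tw2pos 2 (adjusted p = 0.0809, within 9.55e-05 to 0.0809), and Ankrd37 without Tw2pos 1 (0.0895), Tw2pos 2 (0.158) or Tw2neg 2 (0.0633), within 0.00884 to 0.158. Ndrg1, the most abundant of the list, had 5021 and 6642 in Tw2pos, against 4225 and 3269 in Tw2neg, and did not pass (log2 0.64, SE 0.26, limma, adjusted p = 0.0957). It passed without Tw2neg 1 (adjusted p = 0.0441, within 0.0441 to 0.532).

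Of 17 other regulators of glucose use, 4 were higher and 1 lower in Tw2pos (median log2 0.03). Higher calls made up 18.7% of all genes tested, and lower calls 20.0%. Foxk1, a forkhead factor linked to glycolysis, had 695 and 668 normalised counts in Tw2pos, against 1046 and 1055 in Tw2neg (log2 -0.62, SE 0.17, limma, adjusted p = 0.0297). Foxk1 lost the call in DESeq2 (adjusted p = 0.0633) and in the 6-library limma fit (adjusted p = 0.0628). Its call was also lost without Tw2pos 1 (log2 -0.65) and without Tw2pos 2 (log2 -0.60). Txnip, a brake on glucose uptake, was the most abundant of these genes and did not pass, with 11264 and 8317 in Tw2pos, against 10474 and 10749 in Tw2neg (log2 -0.13, SE 0.28, limma, adjusted p = 0.735). Under scaling by library totals the counts of the lists shifted downward, to 0 higher and 9 lower for the pentose phosphate pathway, 0 higher and 8 lower for the tricarboxylic acid cycle and 3 higher and 11 lower for the hypoxia response. The calls over all 14155 genes shifted too, to 1607 higher and 5257 lower.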

How the data were processed

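RNA of sorted mouse muscle cells was sequenced in 6 libraries. Per the submitters' processing notes, TopHat2 2.0.0, DESeq2 1.6.3 and GRCm38/mm10 were used. No source used here gives the read counter, annotation or strand. The authors deposited a normalised signal (normalised counts) for 24062 genes in the 4 Twist2 libraries, 18503 of them above 0. All values (100%) were whole multiples of 1 read within 0.01, so the reads could be recovered. The authors also deposited CPM for 4939 genes, with the Twist2 groups as means, and log2 differences that equal log2 ratios of CPM plus 1. From recovered reads, CPM was rebuilt for the separate Twist2 libraries. Columns of other samples numbered 0.

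The 34 members, the companion and marker lists and the tests were chosen with earlier results of these data known. Named genes are all members and, from each companion list, the gene with the highest mean and the largest passing rise and fall, beside Twist2 and Pax7. Eno1b was added as the copy of Eno1. A gene that the rule names is not reported here. Differences were fitted in limma 3.58.1 (R 4.3.3) with a mean-variance trend on log2 of the value plus 1. Genes needed a mean of 10 or more, and p-values were adjusted by Benjamini-Hochberg over all genes tested, with a threshold of 0.05. The Twist2 comparison used 4 libraries, and comparisons with Pax7 cells used 1 fit of all 6. Both fits had 2 residual degrees of freedom, to which moderation added 4.004 and 5.75. The scripts were tested on simulated data. Replicates differed by more than counting noise, with a chi-square of 13.7 per degree of freedom for Tw2pos (14349 genes) and 69.6 for Tw2neg (15193 genes). Alternatives were other pseudocounts, filters and scalings, edgeR 4.0.16 and DESeq2 1.42.0 on recovered reads, a replicate block and each Twist2 library left out. With a Twist2 library left out, the spread rests on the other Twist2 group alone, so a call can change while log2 hardly moves.

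Shares divide normalised counts by the exon union of GENCODE M21 and sum to 100% within a family. Locations are 1-based in GRCm38. Shared sequence was counted as 50-mers found in genes elsewhere. Promoters are from RefSeq. Figures were drawn with matplotlib 3.10.9 in Python 3.11.15, with numpy 2.4.6, pandas 2.3.3 and scipy 1.17.1.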

Additional observations from a re-analysis of the deposited data

Results flagged for a closer look

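For 7 of the 15 members tested, the labelled-minus-unlabelled difference of the Twist2 line differed from that of the Pax7 line. The difference itself was tested (limma, log2, Twist2 line minus Pax7 line, adjusted p under 0.05). There were n = 2 libraries in each Twist2 group and 1 in each Pax7 group. Over all 4790 genes tested, 36.2% were called, 23.4% positive and 12.8% negative. These genes were selected on differences from Tw2neg, which enters the contrast, so the count of 7 is a description. The spread comes from the Twist2 groups alone, so variation between Pax7 libraries was not measured. The values were -1.41 for Slc2a1, -1.76 for Slc2a3, 3.25 for Eno2, -1.88 for Eno3, -5.15 for Pdk4, 1.51 for Slc16a1 and -2.37 for Slc16a3. In the Twist2 line Pdk4 had 23.0 and 40.9 CPM in Tw2pos, against 28.0 and 23.1 CPM in Tw2neg, while in the Pax7 line it had 348 CPM in Pax7pos, against 7.23 CPM in Pax7neg. Eno2 had 25.1 and 32.7 CPM in Tw2pos, against 10.3 and 8.63 CPM in Tw2neg, and 4.91 CPM in Pax7pos, against 18.8 CPM in Pax7neg. Slc16a3 had 16.1 and 13.1 CPM in Tw2pos, against 137 and 138 CPM in Tw2neg, and 41.6 CPM in Pax7pos, against 72.8 CPM in Pax7neg. Slc2a1, Slc2a3, Eno3 and Slc16a1 lost the call when either Tw2pos library was left out, with limma adjusted p from 0.109 (Slc2a3) to 0.284 (Slc2a1). The part of any difference in cell mixture between the unlabelled cells of the lines was not tested.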

How the results depend on the processing

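Between Tw2pos and Tw2neg, 5470 genes were called, against 2975 over the CPM table with all 6 libraries fitted (fewer genes tested) and 2578 to 7370 with each Twist2 library left out, lowest without Tw2pos 2. Members called higher ranged over 1 to 7 (6 as reported) and lower over 5 to 11 (11 as reported) with a library left out. Members called lower were 17 under scaling by library totals and 7 in the 6-library fit. Scaling by library totals turned Tpi1 (-0.32), Pgam1 (-0.078), Pfkfb2 (-0.065) and Pdk4 (-0.19), none of them called. With a library left out, log2 values spanned 0 for Slc2a4 (-0.063 to 1.43), Aldoa (-0.18 to 0.0094), Pdk3 (-0.26 to 0.21), Pdk4 (-0.16 to 0.67), Ogdh (-0.12 to 0.0084) and Txnip (-0.35 to 0.086). Same-numbered Tw2pos and Tw2neg libraries had deviations correlated at r = 0.263 over 14155 genes. With 2 pairs and no label that ties the numbers, pairing was not established. With a replicate block 6627 genes were called, 6 members higher and 11 lower. No paired analysis was possible because the Pax7 groups share fewer than 2 numbers with the Twist2 groups, which holds for the other comparisons. Between Tw2pos and Pax7pos, 2853 genes were called, against 1501 at a mean of at least 50 CPM (fewer genes tested) and 1635 to 3738 with a library left out. Members called higher were 0 at that filter, 1 with TMM factors and 1 to 5 with a library left out, and members called lower 3 to 6. TMM factors turned Pfkfb3 (-0.16). Between Tw2neg and Pax7neg, 11 genes were called, against 1 with a pseudocount of 10, 3 without a filter, 18 at a mean of at least 50 CPM, 57 with TMM factors and 43 to 1038 with a library left out, highest without Tw2neg 1. Members called higher ranged over 0 to 3 and lower over 0 to 3 with a library left out. Eno3 turned with TMM factors (0.0900), and log2 values spanned 0 for Eno3 (-0.34 to 0.29), Pfkfb3 (-0.20 to 0.35), Pdk1 (-0.029 to 0.28), Pdk2 (-0.35 to 0.48) and Pdk3 (-0.43 to 0.0061) with a library left out. For the difference between the lines, 1736 genes were called, against 979 at a mean of at least 50 CPM (fewer genes tested) and 935 to 3106 with a library left out. Members with a positive call were 1 at that filter, 1 with TMM factors and 1 to 5 with a library left out, and members with a negative call 2 to 5. Hk3 turned with a pseudocount of 10 (-0.35), with TMM factors (-0.27) and across libraries left out (-0.20 to 0.23), as did Pfkfb3 with TMM factors (-0.35) and across libraries left out (-0.18 to 0.37). Between Pax7pos and Pax7neg, 8 members passed 2-fold with a pseudocount of 1, against 5. Unless a cause is given in brackets, the cause was not tested. With a library left out, the spread also comes from the other Twist2 group alone, which by itself moves the calls. Shares that did not overlap numbered 22 to 26 over the alternatives. They numbered 22 with each other length, and 23 to 26 with a library left out, where 1 library against 2 overlaps less readily. edgeR was not run for the comparisons with Pax7neg, since whole reads were not settled for that library. With 1 or 2 libraries a group, the spread rests on few libraries, and a member that did not pass is not shown to be equal.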
